A study of Mus musculus with 5 samples.

Results

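Open chromatin that carried TCF1 and no HEB was described in double positive (DP) thymocytes, the immature thymic T cells that express both CD4 and CD8. A region of the DNaseI list belonged to this class when it overlapped at least 1 region of the TCF1 list by 1 bp or more and no region of the HEB list. The class was therefore chosen by the overlap of 3 measured lists. It held 2328 of 48320 DNaseI regions, or 4.82%, and they are called TCF1-only regions below. "Only" refers to the pair of factors listed, since other proteins were not examined.

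The cells came from C57/BL6 mice aged 4 to 6 weeks, with no treatment or genetic change given in the labels. Of 5 assays in the series, 3 had lists used here: DNase I digestion of intact nuclei, and chromatin immunoprecipitation of HEB and of TCF1, each from 1 sample. The number of mice is not given in the sources used here. The H3K9me3 and H3K27ac samples were not analysed here. There were 4930 HEB regions and 3546 TCF1 regions. No assay had a replicate, so values carry no biological error and no test between classes was made. Intervals are 95% Wilson intervals for shares and cover counting error only. The sequencing depth behind the lists is unknown, and a factor missing from a list may still have been present below the calling limit of that list.

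TCF1, encoded by Tcf7, is an HMG-box protein that bends DNA, can recruit beta-catenin as a coactivator or Groucho/TLE proteins as corepressors, and is needed for T cell specification and for the survival of DP thymocytes. HEB, encoded by Tcf12, is an E protein of the basic helix-loop-helix family that binds E-box sequences and takes part in T cell receptor gene rearrangement in these cells. DNase I cuts where nucleosomes are displaced, so its hypersensitive sites mark promoters, enhancers and other regulatory elements. All positions are mm9 coordinates counted from 1. Genes, promoters and DNA sequence were not assigned to the regions, because no genome or annotation of that build was used here. The cell type label could not be set against marker genes for the same reason.

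TCF1-only regions took up most of the TCF1 list. They held 2355 of the 3546 TCF1 regions, or 66.4%, while 655 lay in open regions that also met HEB and 536 lay outside open regions. Lacking HEB was common in open regions of any kind, as 44334 of all 48320 had neither factor and 1039 had HEB alone. Open regions with TCF1 lacked HEB less often than those without TCF1, as given by score below. TCF1-only regions covered 1793 kb, which was 8.25% of the length of all open regions. A single TCF1 region was the rule, found in 2301 of the 2328. The other 27, or 1.16%, held 2 TCF1 regions and none held more. Of the 619 open regions with both factors, 35, or 5.65%, held 2 or more TCF1 regions. These were wider, with a median of 1053 bp for regions with both factors and 677 bp for TCF1-only regions. The part of the width in this difference was not tested.

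TCF1-only regions ranged from the weakest open regions to strong ones. Each DNaseI region has a score without a stated unit, deposited by the authors, and scores were compared only within that list. The DNaseI score of TCF1-only regions ran from 8 to 507, with a median of 50 and with 10% of the regions at 15 or less and 10% at 117 or more. Over all DNaseI regions the median was 16 and the highest score 871. Their width reached 5224 bp, with quartiles of 442 and 984 bp, and the widest DNaseI region of all had 7846 bp. The score followed the width across TCF1-only regions (Spearman's rho 0.89, n = 2328, given as a description). Ranked against open regions of the same width group, out of 9 groups, their median percentile was 72.5, with quartiles of 47.2 and 88.6. The same median was 84.0 in regions with both factors, 58.1 in regions with HEB alone and 45.5 in regions with neither. The widest group ran from about 854 to 7846 bp, so width was matched only in part. Regions with both factors had a median width of 1053 bp.

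The weak end of the class was small. Only 77 TCF1-only regions, or 3.31%, had a DNaseI score of 10 or less, and their median width was the narrowest one common in the list. Their TCF1 scores, from 8 to 23, had a median of 10. At the strong end, 366 regions, or 15.7%, had a DNaseI score above 100. These had a median width of 1356 bp and TCF1 scores of 8 to 51 with a median of 11. The quartiles of the TCF1 score were 9 and 12 at the weak end and 9 and 14 at the strong end, so the ends overlapped. Of all 48320 DNaseI regions, 6366 had a score of 8 and 6350 a score of 9 to 10. At the other end, 1014 had a score of 101 to 150 and 441 a higher one. The weak end was thus a smaller part of the class than of the list, and the strong end a larger part.

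The share of open regions that were TCF1-only was larger at higher DNaseI scores, up to the class before the highest. It was 0.581% (0.422 to 0.800%) at the lowest score of 8 and 1.62% (1.40 to 1.88%) at scores of 11 to 15. It was 6.80% (6.32 to 7.31%) at 26 to 50 and 16.6% (15.5 to 17.7%) at 51 to 100. It reached 26.2% (23.6 to 29%) at 101 to 150, where 266 of 1014 regions were TCF1-only. Above 150 it was 22.7% (19 to 26.8%), from 100 of 441 regions, and the intervals of these last 2 classes overlapped. The rise was not particular to TCF1-only regions. Regions with HEB alone were 31 of 6366 open regions at a score of 8, 83 of 1014 at 101 to 150 and 40 of 441 above 150. Regions with both factors numbered 5, 127 and 145 in the same score classes.

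The gradient was also present within ranges of width. Among open regions of 301 to 750 bp, TCF1-only regions made up 1.60% (1.20 to 2.12%) at scores of 8 to 15, 4.89% (4.56 to 5.23%) at 16 to 50 and 19.4% (17.2 to 21.7%) at 51 to 100. The 61 regions of that width with scores above 100 held 20 TCF1-only regions, or 32.8% (22.3 to 45.3%). Among regions of 751 to 1500 bp the share was 6.67% (5.58 to 7.94%) at 16 to 50, 16% (14.8 to 17.3%) at 51 to 100 and 28.6% (25.3 to 32%) above 100. In these width ranges the share was higher in each higher score class.

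The lack of HEB, in contrast, was less frequent at high DNaseI scores. Of the open regions with TCF1, 95% (90.8 to 97.3%) had no HEB at DNaseI scores of 11 to 15. This share was 86.1% (83.5 to 88.4%) at 26 to 50, 79.5% (76.9 to 81.9%) at 51 to 100 and 67.7% (62.9 to 72.1%) at 101 to 150. Above 150 it was 40.8% (34.8 to 47.1%), so that most of these 245 TCF1-carrying regions also met HEB. The 42 regions at the lowest score of 8 stood at 88.1% (75 to 94.8%), and the 42 at scores of 9 to 10 at 95.2% (84.2 to 98.7%), and these intervals overlap. Open regions without TCF1 also lacked HEB less often at high scores, with 99.5% at a score of 8, 91.8% at 51 to 100 and 79.6% above 150. In every score class the share lacking HEB was lower with TCF1 than without it.

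**Figure D1:**
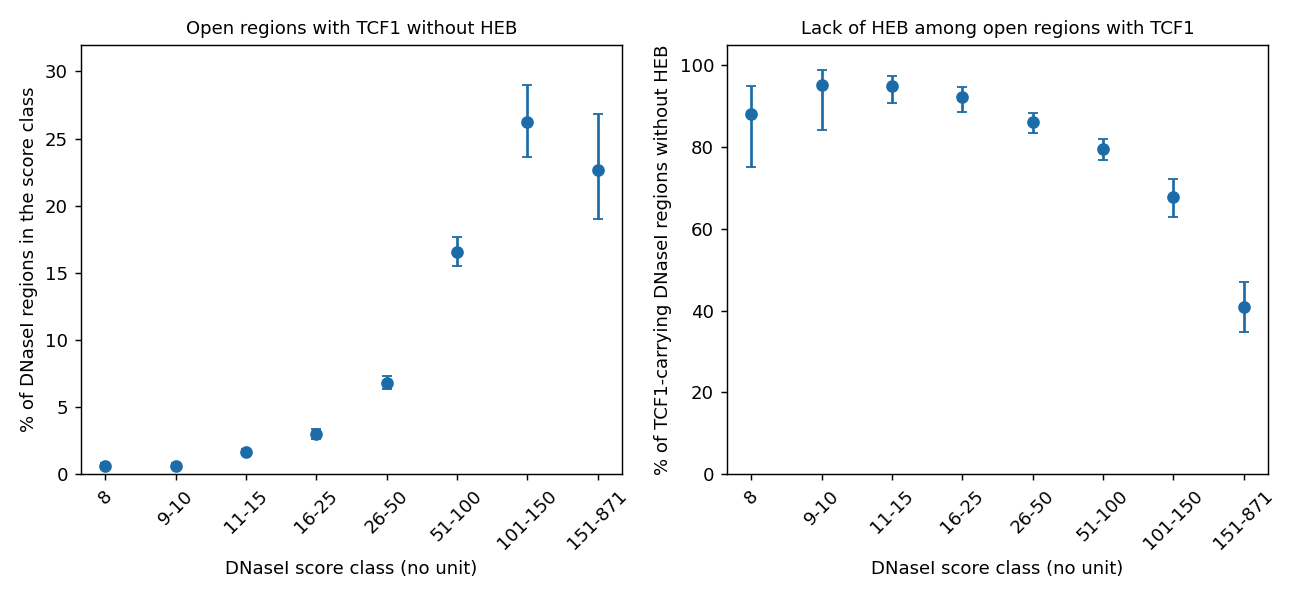
The left panel plots the percentage of DNaseI regions that were TCF1-only in each DNaseI score class, and the right panel the percentage of TCF1-carrying DNaseI regions that met no HEB region. Points are shares and bars are 95% Wilson intervals for counting error. On the left the points climb from 0.581% to 26.2% and end at 22.7%, and on the right they stay at or above 79.5% up to a score of 100 and end at 40.8%.

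The same was seen with width. Of TCF1-carrying open regions of 202 to 300 bp, 93.5% (88.7 to 96.3%) had no HEB, and of those wider than 1500 bp 47.2% (42.0 to 52.5%) had none. The fall was not particular to TCF1 carriers. Of open regions without TCF1, 99.3% lacked HEB at 202 to 300 bp and 82.9% above 1500 bp. A wider region offers more length in which a HEB region can be met, so score and width were also combined. Within 751 to 1500 bp, the share without HEB was 87.8% of 131 TCF1-carrying regions at scores of 16 to 50, 78.2% of 669 at 51 to 100 and 67.2% of 299 above 100. Within 301 to 750 bp the values were 94.0% of 50 at scores of 8 to 15, 87.9% of 884 at 16 to 50 and 84.0% of 281 at 51 to 100. The 22 such regions with scores above 100 did not continue this order, at 90.9%. Shares by score and width together were not made for regions without TCF1.

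The TCF1 score, in contrast to the share of regions with TCF1, hardly varied with openness inside the class. TCF1 regions in TCF1-only regions had scores from 8 to 52, with a median of 11 and quartiles of 9 and 14. Their Spearman's rho with the DNaseI score was 0.04 over 2355 TCF1 regions, and 0.02 with the DNaseI width. In open regions with both factors the rho of TCF1 and DNaseI scores was 0.17 (n = 655), and for HEB and DNaseI scores in regions with HEB alone it was 0.24 (n = 1056). These are descriptions across regions of single libraries, and the narrow range of low whole-number TCF1 scores limits each of them. The 310 TCF1 regions at the lowest score of 8 lay in open regions with a median DNaseI score of 41.5. The 684 at scores of 10 to 11 lay in open regions with a median of 50, and the 158 at 20 to 29 with a median of 55.5. The 39 at 30 to 60 had a DNaseI median of 61 with quartiles of 39 and 91, a range that overlaps widely with that of the lowest scores (26 to 70.8).

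**Figure D2:**
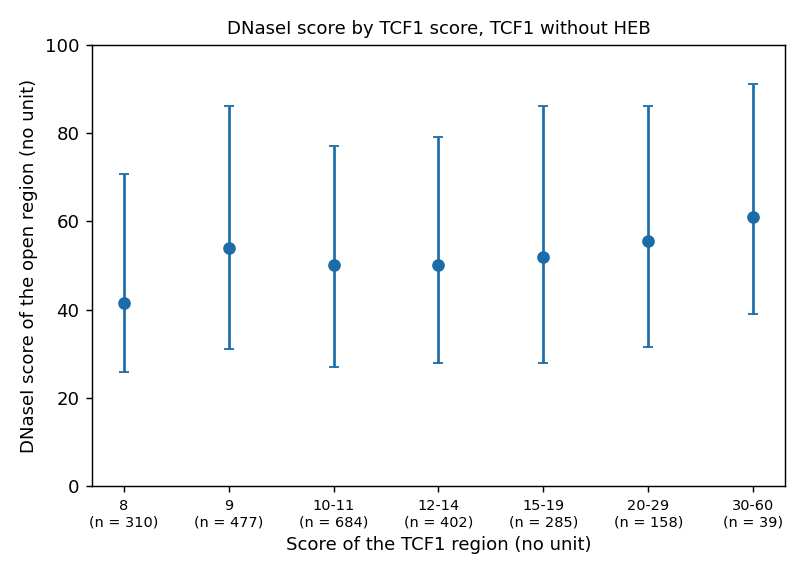
DNaseI score of TCF1-only regions (vertical axis, no unit) by the score of the TCF1 region they held (horizontal axis, no unit, n TCF1 regions per class). Points are medians and bars run from the lower to the upper quartile. Medians stay between 41.5 and 61, and the quartile ranges of all 7 classes overlap.

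The strongest members on each scale were different regions. The highest TCF1 score, 52, was on chromosome 19 in the open region from 59492452 to 59492999. That open region had a DNaseI score of 26, at percentile 25 of its width group. Its TCF1 region, from 59492669 to 59492851, was centred 34.5 bp from the DNaseI centre, and the nearest HEB region was 53.0 kb away. The second, with a TCF1 score of 51, was on chromosome 2 from 32632806 to 32634720 and had a DNaseI score of 114. Next came regions with a TCF1 score of 46 on chromosome 12 from 104569316 to 104570838 (DNaseI score 111) and on chromosome 13 from 97726565 to 97727084 (DNaseI score 59). The fifth, on chromosome 2 from 101464818 to 101465230, had a TCF1 score of 44 and a DNaseI score of 58, and a HEB region lay 3.48 kb away. The last of these 6, on chromosome 5 from 101103716 to 101104360, had a TCF1 score of 42 and a DNaseI score of 41. DNaseI scores of these 6 regions thus lay on both sides of the class median of 50.

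The 6 TCF1-only regions with the highest DNaseI scores had TCF1 scores of 8 to 18. The first lay on chromosome 11 from 87566612 to 87571088, with a DNaseI score of 507, a width of 4477 bp and 1 TCF1 region with a score of 14. Its neighbour from 87562034 to 87566203, with a DNaseI score of 417, was the fourth, and it held TCF1 regions with scores of 15 and 17 that were 2074 bp apart. The second lay on chromosome 6 from 71271747 to 71276970 and was the widest of the class, with a DNaseI score of 483 and a TCF1 score of 18. A HEB region lay 6.21 kb from it, and its TCF1 region was centred 1760.5 bp from the middle of the open region. The third, on chromosome 19 from 5842933 to 5847618, had a DNaseI score of 466 and 2 TCF1 regions with scores of 14 each, 491 bp apart. The fifth, on chromosome 11 from 48668290 to 48670866, combined a DNaseI score of 368 with a TCF1 score of 8, the lowest in the class. The sixth, on chromosome 1 from 135972122 to 135975804, had a DNaseI score of 351 and a TCF1 score of 12, with a HEB region 6.37 kb away.

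Most open regions with 2 TCF1 regions had high DNaseI scores, above 100 in 18 of the 27. The 27 had a median width of 1456 bp (482 to 4686 bp) and a median DNaseI score of 142, against 673 bp and 50 for those with 1 TCF1 region. A wider region has more room for a second TCF1 region, and the part of the width in these values was not tested. The paired TCF1 centres were 385 to 2074 bp apart, with a median of 563 bp, and 8 of the 27 pairs were closer than 500 bp. Ranked by DNaseI score after the chromosome 19 and chromosome 11 regions above came a region on chromosome 7 from 134620950 to 134622391. It had a DNaseI score of 292 and TCF1 scores of 9 and 10 at a spacing of 401 bp. Next was one on chromosome 17 from 34740310 to 34742360 (DNaseI score 228, TCF1 scores 14 and 10, spacing 520 bp). On chromosome 2 the region from 117242848 to 117244910 had a DNaseI score of 220, TCF1 scores of 16 and 21 and a spacing of 1144 bp. The sixth lay on chromosome 19 from 57205907 to 57208101, with a DNaseI score of 208, TCF1 scores of 9 and 13 and a spacing of 913 bp.

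TCF1 lay near the middle of the wider open regions. The centre of the TCF1 region was at a median of 112.5 bp from the DNaseI centre (quartiles 52 and 203.5 bp), and 1083 of 2355, or 46.0%, lay within 100 bp of it. Of all TCF1 centres, 48.3% fell in the middle one of 3 equal parts of the open region. In open regions wider than 400 bp, where a whole TCF1 region has room to lie off centre, this was 1018 of 1849, or 55.1%. The corresponding values in these wider regions were 53.6% for TCF1 in regions with both factors and 52.2% for HEB in regions with HEB alone. At widths of 501 to 1000 bp they were 61.6% of 1043, 58.2% of 225 and 54.8% of 456. In the 90 TCF1-only regions of the narrowest common width, which leaves little room for a whole TCF1 region, 20.0% of the TCF1 centres were in the middle part and 41.1% lay outside the open region.

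**Figure D3:**
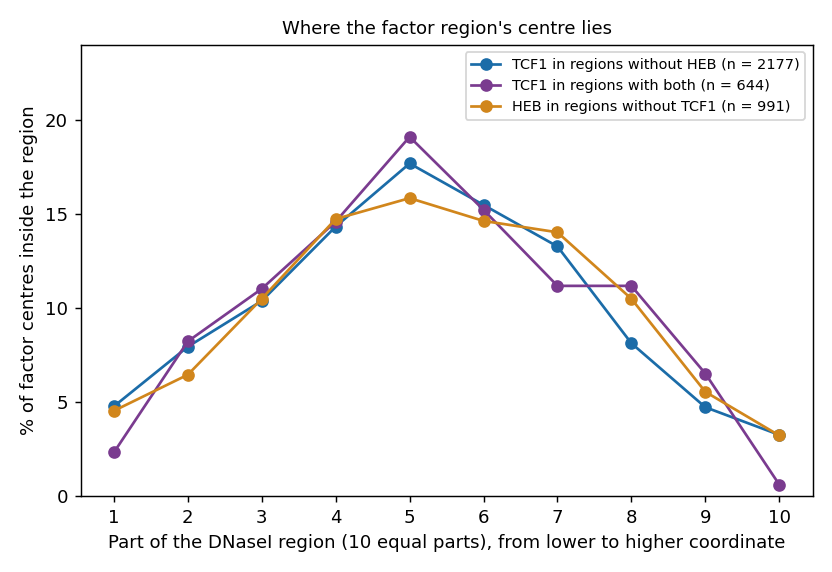
Position of factor centres along the DNaseI region, in 10 equal parts from the lower to the higher coordinate, for TCF1 in TCF1-only regions, TCF1 in regions with both factors and HEB in regions with HEB alone. Each line gives the percentage of the centres that lay inside the region (n in the legend), and all of them peak in part 5, at 17.7% for TCF1-only regions, where part 1 has 4.78% and part 10 has 3.26%.

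At the margin of the rule the overlap was slight. The TCF1 region lay wholly inside the open region in 1799 of 2355 cases, or 76.4%, and its centre lay outside in 178, or 7.56%. Just inside the rule was the region on chromosome 9 from 44199515 to 44199775, which shared 1 bp with a TCF1 region (DNaseI score 10, TCF1 score 11). Another, on chromosome 3 from 84469838 to 84470038, shared 2 bp (scores 8 and 8). Just outside were the open regions on chromosome 15 from 5058073 to 5058394 (DNaseI score 18) and on chromosome 1 from 46951534 to 46951734 (DNaseI score 8), each 4 bp from a TCF1 region with a score of 12 and 9. In all, 17 TCF1-only regions met TCF1 by less than 20 bp, and 69 open regions with neither factor had a TCF1 region within 100 bp.

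HEB was mostly far away from TCF1-only regions. The median gap to the nearest HEB region, inside or outside open chromatin, was 95.1 kb, with quartiles of 31.2 and 228 kb. A HEB region lay within 500 bp of 11 TCF1-only regions, within 1 kb of 34 (1.46%) and within 10 kb of 271, or 11.6% (10.4 to 13.0%). Open regions with neither factor, which also meet no HEB region by definition, had a median gap of 83.7 kb, and 13.0% (12.7 to 13.3%) of them had HEB within 10 kb. The share near HEB was thus slightly lower for TCF1-only regions, with intervals that overlap. The same order was seen in each of 4 width ranges. At 301 to 750 bp the shares were 10.2% (8.52 to 12.1%) of 1080 TCF1-only regions and 12.4% (12 to 12.9%) of 18441 regions with neither. Above 1500 bp they were 17.9% (12.8 to 24.5%) of 162 and 19.5% (16.1 to 23.4%) of 451, with intervals that overlap.

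**Figure D4:**
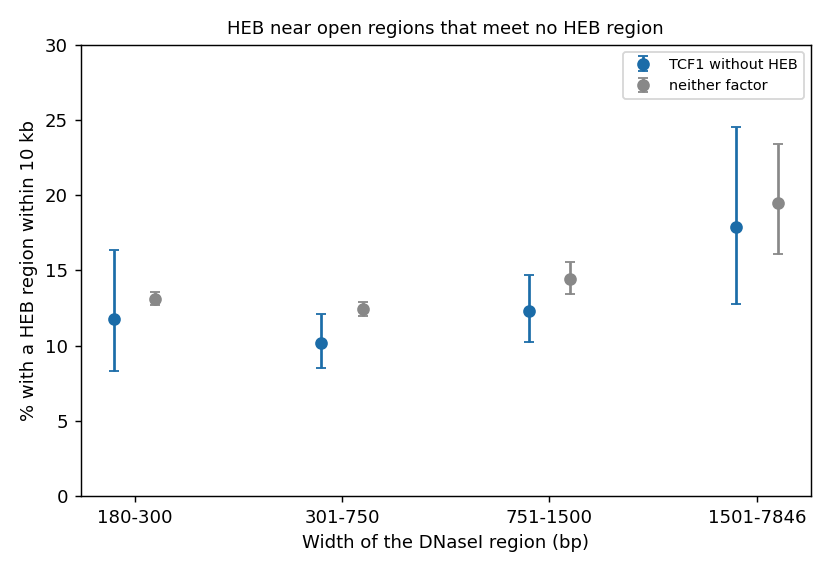
Percentage of open regions with a HEB region within 10 kb (vertical axis) by width of the open region in bp (horizontal axis), for TCF1-only regions and for open regions with neither factor. Bars are 95% Wilson intervals for counting error. In each width range the TCF1-only share is the lower of the pair, as in 10.2% against 12.4% at 301 to 750 bp, and the intervals of each pair overlap.

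The TCF1-only regions closest to HEB were a region on the X chromosome from 11779989 to 11780189, 36 bp from a HEB region (DNaseI score 11, TCF1 score 13), and one on chromosome 11 from 114182568 to 114183164, 240 bp away (DNaseI score 36, TCF1 score 12). Seen from open regions, 224 TCF1-only regions, or 9.62% (8.49 to 10.9%), had a HEB-carrying open region within 10 kb. This share was 10.6% (10.3 to 10.9%) for regions with neither factor, 21.4% (19 to 24%) for regions with HEB alone and 23.4% (20.3 to 26.9%) for those with both, the region itself not counted. Regions that carried HEB thus lay near other HEB-carrying open regions more often than TCF1-only regions did. They also lay nearer to open regions of any kind. Another open region lay within 10 kb of 75.4% of TCF1-only regions, 85.1% with HEB alone and 87.4% with both. The part of this density in the HEB shares was not tested.

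The distance between TCF1-only regions was close to that seen from open regions in general. Another TCF1-only region lay within 10 kb of 278 of them, or 11.9% (10.7 to 13.3%), and the median gap to the next one was 119 kb. From all open regions, another region that was TCF1-only lay within 10 kb in 10.9% (10.7 to 11.2%), at a median gap of 115 kb. This share was 10.8% (10.5 to 11.1%) from regions with neither factor, and 15.0% (12.4 to 18.1%) from regions with both factors. The nearest open region of any kind was at a median of 1.85 kb from a TCF1-only region, against 1.63 kb from a region with neither factor and 0.833 kb from a region with both. That nearest open region carried neither factor in 2112 of 2328 cases (90.7%), was another TCF1-only region in 133 (5.71%), had HEB alone in 50 (2.15%) and had both factors in 33 (1.42%). Over all open regions these shares were 91.4%, 4.88%, 2.27% and 1.44%, close to those of the class.

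Joined at gaps of up to 10 kb, 2050 TCF1-only regions stood alone, 123 runs held 2, 7 runs held 3, and 1 run held 11. The run of 11 lay on chromosome 14 from 54776731 to 54820504, a span of 43.8 kb, and it was singled out after its size was seen. It contained 28 open regions, none with HEB. The 11 TCF1-only regions among them lack HEB by the rule. HEB was also rare in the whole list, where 1039 of 48320 open regions had HEB alone and 619 had both factors. The nearest HEB region was 26.3 to 69.8 kb from the members of the run. Its 11 TCF1-only regions had DNaseI scores of 11 to 44 (median 22), each below the class median of 50, and widths of 252 to 919 bp (median 330 bp). The 17 other open regions of the run had scores of 8 to 115 with a median of 15, and the whole DNaseI list had medians of 16 and 315 bp. The run was thus weakly open beside the class, and not beside the list. The TCF1 scores of the 11 ran from 10 to 32 with a median of 15, and 8 of the 11 were above the class median of 11. Scores are whole numbers with many ties. Of 2355 TCF1 regions in the class, 402 had scores of 12 to 14, 285 of 15 to 19, 158 of 20 to 29 and 39 of 30 to 60. Gaps between neighbours in the run were 1.31 to 7.57 kb, with a median of 3.45 kb. The strongest TCF1 score of the run, 32, belonged to an open region from 54776731 to 54776992 with a DNaseI score of 15. The most open region, from 54786775 to 54787693, had a DNaseI score of 44 and a TCF1 score of 14. Without this run, 267 of 2317 TCF1-only regions, or 11.5%, had another within 10 kb.

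**Figure D5:**
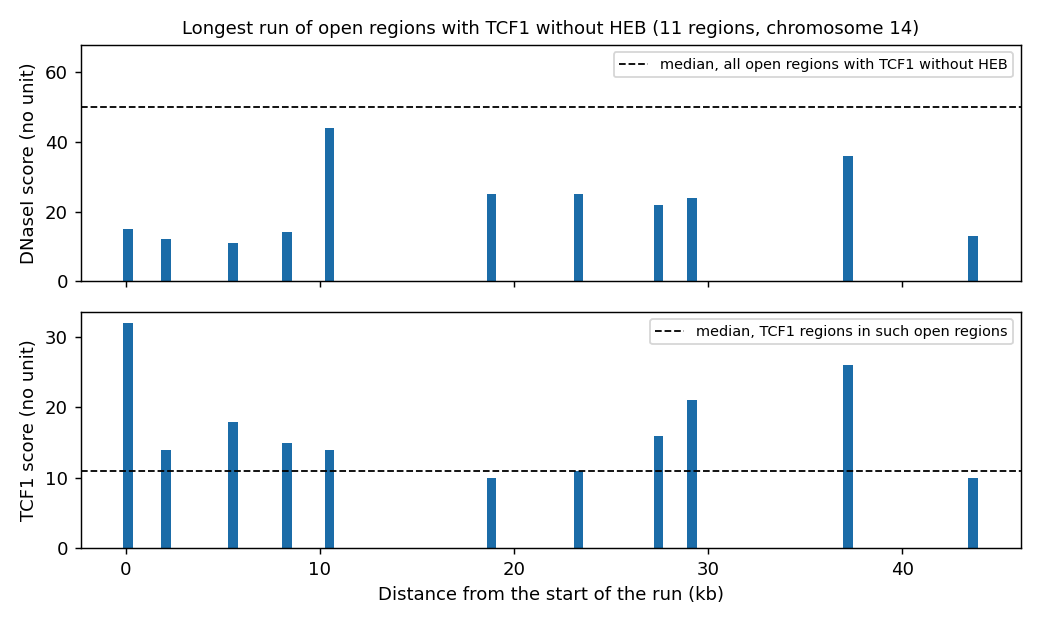
DNaseI score (upper panel) and TCF1 score (lower panel), both without unit, of the 11 TCF1-only regions of the longest run, by distance in kb from its start on chromosome 14. Each bar is 1 open region and dashed lines mark the class medians of 50 and 11. All DNaseI scores are below their line, and 8 of the TCF1 scores are above theirs.

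On a fixed grid of 100 kb, 1918 windows held a TCF1-only region and 1596 of these held 1. The 5 fullest held 5 or 6. Both windows that share the run, from 54700001 to 54800000 and from 54800001 to 54900000 of chromosome 14, held 6, among 26 and 44 open regions. The second of them also held a TCF1-only region beyond the run, from 54852607 to 54853758, with a DNaseI score of 127 and a TCF1 score of 29. On chromosome 11, the window from 87500001 to 87600000 held 6 among 24 open regions, with DNaseI scores of 62 to 507. No open region there met HEB, but the 6 lack it by the rule and HEB was rare in the whole list. On chromosome 2, the window from 117200001 to 117300000 held 6 among 13 open regions (46.2%), with DNaseI scores of 23 to 220 and TCF1 scores of 9 to 21. The window from 92500001 to 92600000 of chromosome 10 held 5 among 11 open regions, and its members were alike, with DNaseI scores of 34 to 45 and TCF1 scores of 8 to 10. All 5 DNaseI scores in the chromosome 10 window were thus below the class median of 50, and all 6 in the chromosome 11 window above it. Full windows did not all lack HEB. The second chromosome 14 window and the chromosome 10 window each held 1 open region with both factors. The chromosome 2 window held 1 with HEB alone, and the first chromosome 14 window held none with HEB.

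TCF1-only regions were spread over every chromosome except Y, which held 4 open regions. Their share of open regions was 4.82% (4.64 to 5.02%) on the 19 autosomes together. It was highest on chromosome 1, at 199 of 2828, or 7.04% (6.15 to 8.04%). It was lowest among autosomes on chromosome 4, at 110 of 2972, or 3.70% (3.08 to 4.44%). These chromosomes were picked as the extremes of 19, so their difference is a description. On the X chromosome 17 of 409 open regions were TCF1-only, or 4.16% (2.61 to 6.56%), a share whose interval includes the autosomal value. All 17 TCF1-carrying open regions of X lacked HEB, against 78.9% of 2930 on autosomes, and X had 1 open region with HEB in all. The X members had DNaseI scores of 11 to 97 (median 39) and a median TCF1 score of 11. Median DNaseI scores of TCF1-only regions by autosome ran from 36 on chromosome 14, or 39 without the run of 11, to 71 on chromosome 7.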

How the data were processed

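DNase I hypersensitivity, HEB binding and TCF1 binding were each measured in 1 sample of DP thymocytes with SOLiD sequencing, per the labels' protocols. Each list deposited by the authors holds a chromosome, start, end and whole-number score per region. The unit of the score deposited by the authors is not given in the sources used here, nor are the aligner, the thresholds, the controls or the depth. The submitters' processing notes list build mm9 and HOMER 6.1, with no role for HOMER. Scores were compared only within their own list.

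Regions were joined by overlaps of 1 bp or more. Gaps were measured edge to edge, position as the distance between centres, and score percentiles within 9 width groups. The 6 regions highest by TCF1 score, DNaseI score and TCF1 number, the 5 fullest windows and 2 regions at each margin were named by rule. Members and lists were chosen with earlier results of these data known. The planned gene and motif results needed an mm9 genome and were not run. The code was tested on simulated lists. Analyses ran in Python 3.11.15 with pandas 2.3.3, scipy 1.17.1, matplotlib 3.10.9 and numpy 2.4.6.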

Additional observations from a re-analysis of the deposited data

How the results depend on the processing

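The 10 summary values of the class were recomputed under 11 other settings. Of the 92 recomputed values, 69 stayed within the counting interval of the reported value, or within 1.5 times it for the number of regions. Some settings changed the class little, as 2317 regions had no HEB within 500 bp and 2311 were on autosomes. The count of 69 therefore overstates how much was varied. Requiring the TCF1 centre, or 50% of the TCF1 region, to lie in the open region gave the same values: 4.45% of open regions, a median DNaseI score of 53, a median width of 710 bp and a median TCF1 offset of 101.5 bp. With TCF1 scores above the list median the class held 878 regions, or 1.82% of open regions, with a median TCF1 score of 15, 0.683% with 2 TCF1 regions and 6.15% with another within 10 kb. With DNaseI scores above the list median it was 8.71% of open regions, with a median score of 56 and width of 741 bp. With HEB scores above the list median it was 5.10% of open regions, with a median gap to HEB of 255983 bp. Without HEB within 5 kb it was 4.50%, with a gap of 107630 bp, and among open regions wider than the narrowest common width it was 6.29%. The share with another TCF1-only region was 3.95% within 2 kb and 31.7% within 50 kb. Each of these settings changes which regions or distances are counted. No paired analysis was possible because each assay had 1 sample, and no replicate could be left out. The alternatives for motifs and transcription start sites were not run, for want of an mm9 genome. Depth is unknown, so a region absent from the HEB list cannot be read as free of HEB.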

Other observations

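TCF1 centres were not placed evenly about the DNaseI centre. In TCF1-only regions, 1298 of 2355 TCF1 centres, or 55.1%, lay at a lower coordinate than the DNaseI centre, 1056 at a higher one and 1 at the same position, with a signed median of -20.5 bp. In the 1043 cases in open regions wider than 500 and up to 1000 bp the signed median was -20 bp, and 584 lay at the lower side. The signed medians at that width were -40.5 bp for TCF1 in regions with both factors, -48.8 bp for HEB in regions with both and -21.2 bp for HEB in regions with HEB alone. In the 90 TCF1-only regions of the narrowest common width it was 9 bp. The signed medians were thus negative for both factors in wider regions. In regions with HEB alone the lower side held 246 of 456 HEB centres above 500 and up to 1000 bp, or 53.9%. Over all widths it held 51.9% of these HEB centres, with a signed median of -9 bp. The TCF1 and HEB values for regions with both factors come from the same open regions. Coordinates run along the chromosome and take no account of the direction of any gene, and the source of the offset was not tested.

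The weakest and the strongest TCF1-only regions lay about equally far from HEB and differed more in how close the next open region was. Of the 77 with a DNaseI score of 10 or less, 13 had another TCF1-only region within 10 kb (16.9%) and 11 had HEB within 10 kb (14.3%). Of the 366 with a score above 100, 54 (14.8%) and 43 (11.7%) did. Their median gaps to HEB were 79.1 and 78.2 kb. Another open region lay within 2 kb of 41.6% of the weak and 64.2% of the strong ones. This share was 53.8% over all DNaseI regions, 50.8% over all TCF1-only regions, 61.9% with HEB alone and 68.2% with both factors. From all DNaseI regions, 10.9% had a TCF1-only region within 10 kb. Weak and strong regions of the other classes were not compared, so the difference cannot be called particular to TCF1-only regions. No intervals were made for these ends, and the weak end is small.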
